A study of Mus musculus with 14 samples.

Results

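The comparison described here set the plantaris muscle of mice after 1 day of functional overload against the same muscle at day 0. Its members were chosen by the labelled time point alone, with no measured value used, and are 4 of the 14 arrays of the series, 2 of day 1 and 2 of day 0. The plantaris is a small, mostly fast muscle of the calf. For overload, synergist ablation was performed: calf muscles with the same action are cut away, and the plantaris takes over their work and grows.

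The day 1 group was plantaris of male C57BL/6J mice, 5 months of age, labelled as hypertrophy induced by synergist ablation and taken at day 1. The day 0 group was plantaris of male C57BL/6J mice of the same age, taken at day 0, and its labels name no treatment. No genetic change is given in the labels for either group. Each day had a pool of right muscles and a pool of left muscles, and each pool held muscle of 6 animals. Whether both sides of a day were taken from the same mice is not in the labels. The p-values therefore reflect the spread between pools alone, and some of it may be technical. Samples of sham-operated animals were not analysed here, so the effects of surgery, of time and of overload cannot be told apart.

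Intensity was measured on the Affymetrix Mouse Gene 1.0 ST platform, whose probes lie along the whole transcript, and taken on a log2 scale for 19938 genes. A step of 1 on this scale is a 2-fold difference. Where 2 values of a day are given, the right pool comes before the left pool. Differences are day 1 minus day 0 and are given ± SE from limma's fit to all 14 arrays, with 2 pools at each day. A gene was called at a Benjamini-Hochberg adjusted p under 0.05 over all genes, and every adjusted p below is from that fit. Precision is limited by the number of arrays. The median SE of a difference was 0.0988. Levels of different probe sets cannot be set against each other exactly, so differences are those of the same gene between pools. Where levels are used across genes (classes by level, a low level and its bounds, summed intensities), the values are rough guides.

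Skeletal actin, Acta1, a defining gene of the labelled tissue, measured 14.30 and 14.31 at day 1, against 14.38 and 14.40 at day 0. Some pools stood apart in genes of other tissues. The 20 measured genes of hepatocytes, the main cells of the liver, had a median level of 12.24 and 10.19 at day 1, against 9.83 and 12.26 at day 0, so they were high in the right pool of day 1 and in the left pool of day 0. Albumin, Alb, measured 14.00 and 13.33 at day 1, against 12.75 and 13.82 at day 0. None of the 20 was called between the days. Granule genes of neutrophil precursors, which are made in bone marrow, were higher in the right pool at both days: lactoferrin, Ltf, measured 10.38 and 8.22 at day 1, against 10.04 and 8.54 at day 0, and of 11 such genes 1 was called, the macrophage chitinase-like gene Chil3 (2.94 ± 0.37). Between right and left, 384 genes differed by more than 2-fold at day 1 and 277 did so at day 0. The part of these signals in the results was not tested. Leaving out the right pool of day 1 and the left pool of day 0 together compares a left with a right muscle pool, in which the effect of the day and that of the side cannot be told apart. In that fit 8636 genes were called, against 10970 with all pools. The right pool of day 1 and the left pool of day 0 are called the hepatocyte-rich pools below.

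**Figure D1:**
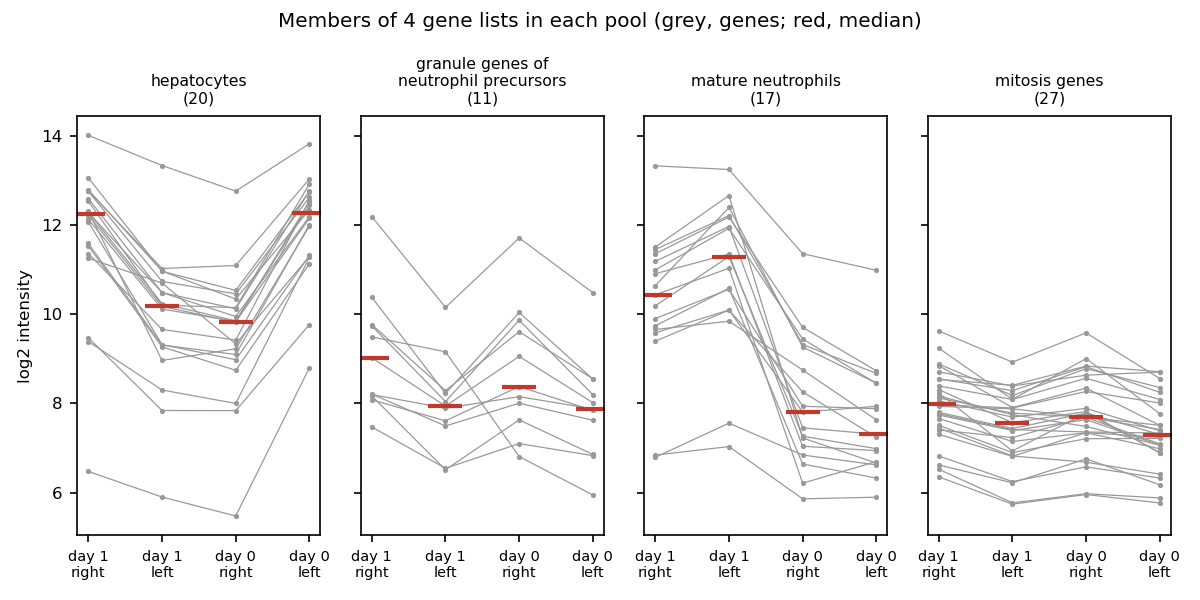
Log2 intensity (vertical axis) of the members of 4 gene lists in the 4 pools of days 1 and 0 (horizontal axis). Each grey line is a gene and each red bar the median of the list. Hepatocyte genes were high in the right pool of day 1 and the left pool of day 0, and mature neutrophil genes were higher in both pools of day 1 than in both pools of day 0 by their medians.

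When a muscle is suddenly loaded and the tissue around it is cut, injured and stressed cells release signals that open a programme known from many tissues. Chemokines and interleukins call neutrophils and then monocytes from the blood, through receptors that act on the transcription factor NF-kappaB and on the STAT factors. Fibres and resident cells switch on immediate early genes of the AP-1 family, protein-folding and antioxidant genes, and the muscle's own genes of contraction and energy supply are often turned down meanwhile.

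At day 1, 10970 of the 19938 genes were called, which is 55.0% of all genes tested. Of all genes 20.3% rose, 4045 genes, and 34.7% fell, 6925 genes. Past 2-fold the order was turned, as 1220 genes (6.12%) rose and 632 (3.17%) fell. Past 8-fold 105 rose and 3 fell, and past 16-fold 31 rose and 0 fell. In 10958 of the called genes the day 1 pools did not overlap the day 0 pools, and in 12 they did. A call nearly implies such a separation, so it is not separate support. Its share over all genes was not counted. Rises were fewest among dim genes: in the dimmest of 3 equal classes by level 242 rose and 1885 fell, in the middle class 1360 rose and 2649 fell, and in the brightest 2443 rose and 2391 fell. The median difference over all genes was -0.14, and it was -0.07 after quantile normalization. It was not subtracted from the values below. Genes of olfactory and vomeronasal receptors, for which muscle is not known to have a use, had a median level of 5.65 to 5.72 in the 4 pools and a 95th percentile of 7.25 to 7.47, and levels at or under these are taken as low. By pool the percentile was 7.25 and 7.31 at day 1, against 7.42 and 7.47 at day 0, so it was lower in both pools of day 1. The median difference in the dimmest class was -0.17. How much of the falls among dim genes comes from this lower level was not tested. In 31 of the genes named below that rose, both pools of day 0 lay under that percentile, and in 7 that fell, both pools of day 1 did. Their differences are fitted values, not exact folds. With the percentile of each pool in place of the low level, Ccl3 was at least 33.8-fold higher at day 1, Cxcr2 at least 24.8-fold, Cxcl2 at least 17.5-fold and Il1b at least 16.1-fold.

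**Figure D2:**
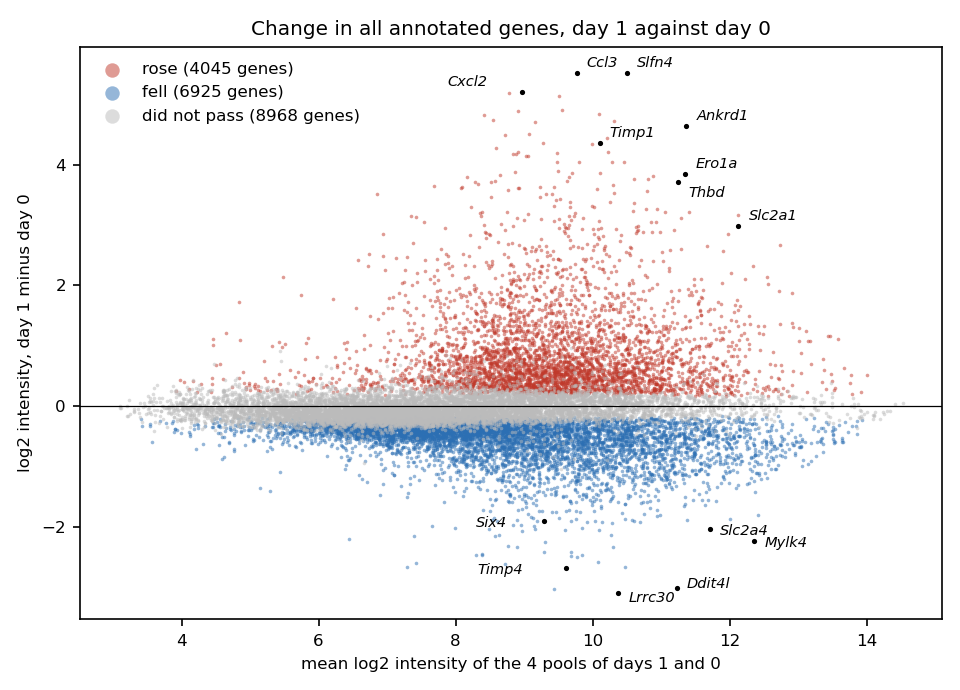
Difference of each of 19938 genes in log2 intensity, day 1 minus day 0 (vertical axis), against its mean log2 intensity over the 4 pools (horizontal axis). The 4045 genes that rose reach 5.52 and the 6925 that fell reach -3.10.

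The chemokines of monocytes and neutrophils were among the genes that changed most. Of the CC chemokines, which mainly attract monocytes, 10 of 17 rose and 3 fell, with a median of 0.80. Ccl3, made by activated macrophages and neutrophils, had a level of 12.49 and 12.55 at day 1, against 6.79 and 7.23 at day 0. Ccl2, the main attractant of monocytes from the blood, measured 12.46 and 12.55 at day 1, against 7.84 and 7.51 at day 0, and its relative Ccl7 measured 12.13 and 12.18 at day 1, against 7.84 and 7.78 at day 0. For all of these the day 1 pools stood more than 4 log2 units above both day 0 pools. The differences were 5.52 ± 0.15, adjusted p = 7.86e-10 for Ccl3, 4.83 ± 0.12 for Ccl2 and 4.35 ± 0.10 for Ccl7. Ccl6 (3.81 ± 0.13), Ccl9 (3.39 ± 0.07) and Ccl12 (2.29 ± 0.13) followed. The list was not uniform. Ccl11, the attractant of eosinophils, fell to 9.65 and 9.62 at day 1, against 10.71 and 10.59 at day 0 (-1.01 ± 0.12), and the lymphoid chemokine Ccl19 (-0.05 ± 0.09) did not pass the test.

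Of the CXC and CX3C chemokines 10 of 15 rose and 2 fell, with a median of 1.08. Cxcl2, which draws neutrophils through the receptor Cxcr2, had a level of 11.36 and 11.79 at day 1, against 6.35 and 6.39 at day 0, a difference of 5.20 ± 0.28, adjusted p = 6.72e-08. Cxcl3 (4.21 ± 0.26) and Cxcl5 (3.30 ± 0.16), which act on the same receptor, rose as well, and Cxcl1, a further ligand, was up by 1.08 ± 0.14. Cxcl10, an interferon-induced attractant of T cells, measured 12.55 and 12.32 at day 1, against 8.21 and 7.77 at day 0, a difference of 4.45 ± 0.14. Cxcl12, which holds stem cells and leukocytes in tissue, went the other way (-0.42 ± 0.10). Of 17 chemokine receptors 9 rose and 1 fell. Cxcr2 stood at 11.50 and 12.66 at day 1, against 7.22 and 6.66 at day 0, with the left pool of day 1 above the right one. Ccr1 (4.83 ± 0.23), a receptor of Ccl3, Ccr2 (3.63 ± 0.16), the receptor of Ccl2, and Cxcr4 (1.93 ± 0.18), the receptor of Cxcl12, rose. Cxcr3, the T cell receptor of Cxcl10, was lower (-0.29 ± 0.10), a call lost when a right pool was left out (-0.17 for either day), after quantile normalization (-0.21), with equal array medians (-0.27) and in a fit to the arrays of the compared days alone (adjusted p = 0.142). In bulk muscle, more cells of a type and more RNA per cell cannot be told apart.

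The promoters of these neutrophil chemokines are shown because they share a run of letters that binds NF-kappaB, GGANTTTCC, searched on both strands from 250 bases before to 50 bases after the start of each gene in RefSeq's promoter table (GRCm38.p6). It was in 4 of 12 promoters of CXC and CX3C chemokines, in 6 of 24 promoters of NF-kappaB subunits, inhibitors and feedback genes, and in 0 of 12 promoters of CC chemokines, against 1.25% of all 32851 promoters. The table held 12 of the 15 CXC and CX3C genes, 18 of the 21 NF-kappaB genes and 11 of the 17 CC genes. Each stretch runs 5′ to 3′ on the strand of its gene, from 40 bases before the motif to 40 bases after it, and the capitals mark the motif. A match is a description of the sequence and says nothing of binding in these muscles.
Cxcl2 (chr5:90903763-90903851, plus strand): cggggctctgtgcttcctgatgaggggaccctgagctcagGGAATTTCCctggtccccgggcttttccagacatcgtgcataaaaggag
Cxcl3 (chr5:90785989-90786077, plus strand): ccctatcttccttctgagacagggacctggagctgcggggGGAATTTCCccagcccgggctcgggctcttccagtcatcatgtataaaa
Cxcl1 (chr5:90891135-90891223, plus strand): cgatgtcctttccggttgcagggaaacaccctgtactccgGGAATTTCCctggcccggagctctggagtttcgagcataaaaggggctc
The motif began 96, 72 and 70 bases before the start in Cxcl2, Cxcl3 and Cxcl1, and its letters were the same in all of them. The differences of these genes were 5.20 ± 0.28, 4.21 ± 0.26 and 1.08 ± 0.14 in that order.

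Of the interleukin 1, tumour necrosis factor and colony-stimulating factor ligands 10 of 23 rose and 4 fell, and of their receptors 20 of 22 rose and 0 fell, with a median of 2.10 for the receptors. Levels of 8 of the 23 ligands and 2 of the 22 receptors lay under the olfactory 95th percentile in all 4 pools. Il1b, the interleukin that starts much of the local inflammation, had a level of 11.14 and 11.76 at day 1, against 7.06 and 7.12 at day 0, a difference of 4.36 ± 0.19, adjusted p = 1.84e-08. Its inhibitor Il1rn rose beside it, at 11.09 and 11.25 at day 1, against 7.55 and 7.76 at day 0 (3.52 ± 0.11). Il1a (2.45 ± 0.14), Csf1 (2.03 ± 0.11), the growth factor of macrophages, Il33 (1.94 ± 0.12), an alarm signal of injured tissue, and Tnf (1.81 ± 0.12) rose less. Il34, the second ligand of the Csf1 receptor, fell (-0.65 ± 0.07), as did Il12a (-0.73 ± 0.09). Csf3, which calls neutrophils from marrow, measured 7.44 and 7.46 at day 1, against 7.27 and 7.34 at day 0 and did not pass, with levels near those of the olfactory genes. After quantile normalization Csf3 was called as a rise (0.32). Its receptor Csf3r stood at 11.18 and 11.96 at day 1, against 7.45 and 7.31 at day 0, a difference of 4.19 ± 0.22. The decoy receptor Il1r2, which binds interleukin 1 without signalling, measured 10.19 and 11.29 at day 1, against 7.26 and 6.98 at day 0 (3.61 ± 0.29). Csf2rb (3.02 ± 0.15), the shared chain of the receptors of interleukin 3, interleukin 5 and Csf2, and Il4ra (2.54 ± 0.10) were higher at day 1 in both pools. Without the right pool of day 0, 6 ligands fell instead of 4.

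Interleukin 6, a cytokine that muscle and leukocytes both make, lay below the median of the olfactory genes at day 0. Il6 measured 8.39 and 8.84 at day 1, against 5.11 and 5.09 at day 0, a fitted difference of 3.51 ± 0.14, adjusted p = 7.17e-09, and against the olfactory 95th percentile it was at least 2.25-fold higher at day 1. The feedback inhibitor Socs3 (2.82 ± 0.13), the receptor Osmr of oncostatin M (1.95 ± 0.07), the ligand Osm (1.73 ± 0.23), the factor Stat3 (1.70 ± 0.07), which carries the signal, and the kinase Pim1 (1.69 ± 0.09) rose. The family changed as 13 rises and 3 falls among 18 genes. Those that fell were Lifr (-1.01 ± 0.13), the receptor of leukaemia inhibitory factor, the ligand Ctf1 (-1.08 ± 0.09), and Cish (-0.73 ± 0.10), a feedback gene of STAT5. Il11, a further ligand, stood at 7.54 and 7.88 at day 1, against 7.43 and 7.66 at day 0 and did not pass. After quantile normalization Il11 was called as a rise (0.33).

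Receptors by which myeloid cells sense microbes and damaged cells were nearly all higher: 23 of 25 rose and 1 fell, with a median of 2.26. Clec4e, which binds a protein released by dead cells, measured 11.23 and 11.52 at day 1, against 6.38 and 5.99 at day 0, a fitted difference of 5.19 ± 0.20, adjusted p = 5.83e-09, and it was at least 15.2-fold higher by the same bound. Its partner Clec4d (4.28 ± 0.18), the RNA sensor Tlr13 (4.15 ± 0.22), the amplifying receptor Trem1 (3.67 ± 0.26), Clec4n (3.65 ± 0.12) and Clec5a (3.47 ± 0.26) rose too. Ager, the receptor of advanced glycation products, fell (-0.28 ± 0.10), a call lost without the right pool of day 0 (-0.30), the left pool of day 0 (-0.27) or the right pool of day 1 (-0.22), with equal array medians (-0.26) and with the arrays of days 1 and 0 alone (adjusted p = 0.051), and the cytosolic sensor Nod1 did not pass (-0.13 ± 0.09).

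Of the NF-kappaB subunits, inhibitors and feedback genes 15 of 21 rose and 0 fell. Nfkbia, which holds NF-kappaB in the cytosol, stood at 11.22 and 11.30 at day 1, against 10.04 and 9.72 at day 0 (1.38 ± 0.12), and Tnfaip3, a feedback enzyme, at 9.61 and 9.77 at day 1, against 8.34 and 8.28 at day 0 (1.38 ± 0.09). For both the day 1 pools lay above the day 0 pools by more than the pools of a day differed. The kinase Ikbke (1.93 ± 0.08), the nuclear inhibitors Nfkbiz (1.75 ± 0.11) and Nfkbid (1.65 ± 0.09) and the survival gene Birc3 (1.41 ± 0.12) rose. Nfkbib (0.18 ± 0.09), Traf2 (0.07 ± 0.09) and Tnfaip2 (-0.12 ± 0.11) did not pass. The promoters of Nfkbia and Tnfaip3 hold the same NF-kappaB run, marked in capitals below as for the chemokines, and are shown because both genes are feedback inhibitors of the factor.
Nfkbia (chr12:55492628-55492865, minus strand): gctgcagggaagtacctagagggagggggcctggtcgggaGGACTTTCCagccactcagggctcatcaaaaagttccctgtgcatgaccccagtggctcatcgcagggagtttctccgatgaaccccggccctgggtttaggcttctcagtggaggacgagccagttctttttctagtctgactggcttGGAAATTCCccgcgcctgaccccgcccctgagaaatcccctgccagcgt
Tnfaip3 (chr10:19015386-19015474, minus strand): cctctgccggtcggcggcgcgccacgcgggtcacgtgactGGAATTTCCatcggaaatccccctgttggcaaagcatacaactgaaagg
Nfkbia held 2 matches, 178 and 29 bases before its start and on opposite strands, and Tnfaip3 held 1 match, 24 bases before its start.

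Interferon-stimulated genes all rose. They are switched on by interferons through STAT and IRF factors and hinder viruses. Of 30 measured 30 rose and 0 fell, with a median of 2.53, and the count was 30 in each fit that left out a pool of day 1 or day 0. Slfn4, a Schlafen family gene of myeloid cells, had a level of 13.21 and 13.30 at day 1, against 7.89 and 7.59 at day 0, a difference of 5.51 ± 0.13, adjusted p = 3.12e-10. Ifit1 measured 11.43 and 11.56 at day 1, against 7.48 and 7.42 at day 0 (4.04 ± 0.16, adjusted p = 6.57e-09) and Ifit3 measured 12.26 and 12.35 at day 1, against 8.13 and 8.40 at day 0 (4.04 ± 0.17, adjusted p = 1.52e-08), both encoding proteins that bind viral RNA. Pools of a day differed by less than 0.4 in these genes, against differences of more than 4 between the days. Slfn1 (4.70 ± 0.09), Mx1 (3.79 ± 0.16), a guanosine triphosphatase, and Oasl2 (3.53 ± 0.10) followed, and Ifi209 (4.74 ± 0.17), of the interferon-induced p200 family, was among the 20 largest rises of all genes.

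Among interferons, their receptors and factors 12 of 18 rose and 2 fell. Irf7, the factor that amplifies the response, stood at 11.38 and 11.36 at day 1, against 7.83 and 8.13 at day 0, a difference of 3.39 ± 0.15, adjusted p = 1.74e-08. Stat2 (2.14 ± 0.10) and Irf9 (1.68 ± 0.09), partners in the complex that reads the interferon signal, rose, as did the receptor chain Ifnar1 (1.22 ± 0.08) and the myeloid factors Irf5 (1.52 ± 0.11) and Irf8 (1.24 ± 0.11). Irf3, which starts interferon production and is mostly controlled as a protein, did not pass (0.03 ± 0.08). The ligands were not higher: Ifng measured 7.41 and 7.37 at day 1, against 7.49 and 7.51 at day 0 (-0.11 ± 0.08) and Ifnb1 measured 6.08 and 5.92 at day 1, against 6.17 and 6.20 at day 0 (-0.18 ± 0.10), and neither passed. Both lay near or under the levels of the olfactory genes, so a change in them may not be detectable on this array. Ifngr2, a chain of the interferon gamma receptor, fell (-0.38 ± 0.06).

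The core letters of the interferon-stimulated response element, TTCNNTTTC, were searched in the same way. They were in 14 of 28 promoters of the interferon-stimulated genes, for which the table held 23 of the 30 genes, against 8.56% of all promoters. Matches can overlap each other, and overlapping matches are printed as 1 run of capitals. The promoters of 4 of these genes are shown to let the repeated element be seen.
Ifit1 (chr19:34640740-34640853, plus strand): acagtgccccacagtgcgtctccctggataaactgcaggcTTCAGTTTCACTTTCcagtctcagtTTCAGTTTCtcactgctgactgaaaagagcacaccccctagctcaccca
Ifit3 (chr19:34583334-34583475, plus strand): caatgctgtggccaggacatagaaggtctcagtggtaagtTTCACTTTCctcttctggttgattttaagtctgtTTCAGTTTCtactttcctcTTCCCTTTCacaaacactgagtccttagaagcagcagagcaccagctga
Rsad2 (chr12:26456523-26456611, minus strand): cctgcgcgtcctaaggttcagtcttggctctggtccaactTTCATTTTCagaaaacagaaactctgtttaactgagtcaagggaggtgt
Oas3 (chr5:120777680-120777774, minus strand): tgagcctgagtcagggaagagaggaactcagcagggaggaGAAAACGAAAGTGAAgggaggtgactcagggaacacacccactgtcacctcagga
Ifit1 and Ifit3 held 3 matches each, all on the strand of the gene. In Oas3 both matches were on the other strand and overlapped. Rsad2 and Oas3, enzymes that hinder viral replication, rose by 2.91 ± 0.13 and 2.35 ± 0.12.

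Of 27 genes of the prostaglandin and leukotriene pathway 14 rose and 5 fell. Ptgs2, the inducible cyclooxygenase, had a level of 11.27 and 11.61 at day 1, against 7.60 and 7.49 at day 0, a difference of 3.89 ± 0.11, adjusted p = 7.51e-10. The phospholipase Pla2g4a (1.66 ± 0.10), which frees the fatty acid they are made from, the thromboxane synthase Tbxas1 (1.96 ± 0.12), and Alox5ap (2.61 ± 0.15) and Alox5 (1.54 ± 0.22), which start leukotriene synthesis, rose together with the leukotriene receptor Cysltr1 (2.22 ± 0.08). The prostaglandin E synthase Ptges2 (-0.77 ± 0.09) and the receptor Ptger3 (-0.56 ± 0.09) fell. Hpgd, which breaks prostaglandins down, measured 9.10 and 7.84 at day 1, against 8.56 and 8.80 at day 0 and did not pass, its day 1 pools lying on both sides of day 0. Without the right pool of day 1 it was called as a fall (-0.84) and without the left pool as a rise (0.42).

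Immediate early transcription factors, which cells switch on without new protein synthesis, were mostly higher at day 1. Of 37 in the list 29 rose and 0 fell, with a median of 1.37. Myc, a driver of growth genes, had a level of 12.01 and 12.05 at day 1, against 8.20 and 8.14 at day 0, a difference of 3.86 ± 0.09, adjusted p = 2.92e-10. The AP-1 member Fosl1 measured 11.02 and 11.33 at day 1, against 7.76 and 7.77 at day 0 (3.41 ± 0.19) and the stress factor Atf3 measured 13.001 and 13.01 at day 1, against 9.91 and 9.68 at day 0 (3.21 ± 0.10). None of these genes had a day 1 pool within 2.5 log2 units of a day 0 pool. Runx1, a factor that muscle makes after denervation and injury, rose by 3.23 ± 0.10, Klf6 by 2.41 ± 0.08 and Ier3 by 2.35 ± 0.11. Nr4a1, which is otherwise quickly induced by exercise, measured 12.28 and 12.11 at day 1, against 12.17 and 12.04 at day 0 and did not pass, nor did Klf2 (0.11 ± 0.08) and Klf4 (-0.04 ± 0.10). AP-1 letters, TGANTCA, were in 2 of 39 promoters of the list and in 4 of 18 promoters of matrix proteases and inhibitors, against 7.81% of all promoters.

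Feedback genes of the MAP kinase pathway, which lies upstream of these factors, went both ways: 12 of 23 rose and 8 fell. Dusp5, a nuclear phosphatase of ERK, stood at 11.17 and 11.01 at day 1, against 8.70 and 8.68 at day 0 (2.40 ± 0.08). Spred1 (1.69 ± 0.08) and Rasa2 (1.06 ± 0.17), both inhibitors of Ras signalling, rose. Spry1 (-1.11 ± 0.09), Dusp8 (-1.17 ± 0.09) and Dusp18 (-1.17 ± 0.09) fell. In the epidermal growth factor family 8 of 20 rose and 4 fell, and 5 of the 20 had levels under the olfactory 95th percentile in all 4 pools. Hbegf, a membrane-bound ligand of Egfr, measured 12.34 and 12.42 at day 1, against 9.36 and 9.30 at day 0, a difference of 3.05 ± 0.11, adjusted p = 3.47e-09. Adam10, a sheddase that frees such ligands, rose (1.09 ± 0.07), as did the leukocyte protease Adam8 (3.43 ± 0.17). The ligand Egf fell (-1.20 ± 0.17), and the receptor Egfr measured 10.72 and 10.36 at day 1, against 9.85 and 10.61 at day 0 and did not pass. The difference of Egfr was 0.69 without the left pool of day 0, -0.07 without the right pool of day 0 and 0.51 without both hepatocyte-rich pools.

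Genes of protein folding in the endoplasmic reticulum rose without exception in the main comparison: 25 of 25, with a median of 1.18, and 24 of 25 in the fit without both hepatocyte-rich pools. Ero1a, the oxidase that helps form disulfide bonds, measured 13.27 and 13.28 at day 1, against 9.49 and 9.38 at day 0, a difference of 3.84 ± 0.12, adjusted p = 1.36e-09. Hspa5, the main chaperone of the compartment, stood at 13.74 and 13.62 at day 1, against 11.79 and 11.76 at day 0 (1.91 ± 0.07). Both genes differed between pools of a day by 0.2 or less. Sdf2l1 (2.27 ± 0.10), Edem1 (2.17 ± 0.12), Creld2 (2.03 ± 0.08) and Pdia4 (1.93 ± 0.11), which fold or clear secreted proteins, rose by 1.9 to 2.3.

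The factor ATF4 answers shortage of amino acids and folding stress. Of its targets and the genes of serine synthesis 18 of 28 rose and 3 fell. Slc7a11, the cystine importer, had a level of 9.93 and 10.35 at day 1, against 6.63 and 6.23 at day 0, a fitted difference of 3.70 ± 0.20, adjusted p = 6.77e-08, and it was at least 6.46-fold higher at day 1 against the olfactory 95th percentile. Slc7a5, which brings in leucine, measured 11.86 and 11.88 at day 1, against 9.32 and 9.19 at day 0 (2.62 ± 0.10), and Asns, the asparagine synthetase, measured 11.50 and 11.45 at day 1, against 9.18 and 8.81 at day 0 (2.48 ± 0.13). Sesn2 (2.18 ± 0.11), an inhibitor of mTORC1, and the one-carbon enzyme Mthfd2 (1.77 ± 0.13) rose with Psat1 (2.11 ± 0.12) of serine synthesis. Other targets fell: Chac1 (-0.41 ± 0.12), which degrades glutathione, Vldlr (-0.57 ± 0.12) and Psph (-0.50 ± 0.07). The call of Chac1 was lost when a right pool was left out (-0.40 for day 1 and -0.38 for day 0). Cth, also a liver enzyme, measured 11.002 and 7.90 at day 1, against 8.72 and 10.17 at day 0 and did not pass, with the pattern of the hepatocyte genes. Of the cytosolic aminoacyl-tRNA synthetases, which load amino acids on transfer RNA, 9 of 18 rose and 0 fell, the rises being below 2-fold and led by Tars (0.76 ± 0.12).

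The amino acid response element, TTGCATCA, was in 6 of 27 promoters of the ATF4 list and in 3 of 11 promoters of the synthetases, against 0.895% of all promoters. The table held 24 of the 28 and 11 of the 18 genes. The element is shown in 2 genes that rose and in 1 that fell.
Slc7a11 (chr3:50443613-50443719, minus strand): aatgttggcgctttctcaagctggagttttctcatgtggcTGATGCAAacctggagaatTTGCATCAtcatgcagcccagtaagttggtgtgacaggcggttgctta
Tars (chr15:11399626-11399713, minus strand): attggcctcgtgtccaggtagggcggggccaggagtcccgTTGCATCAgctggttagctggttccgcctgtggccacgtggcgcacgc
Chac1 (chr2:119351009-119351096, plus strand): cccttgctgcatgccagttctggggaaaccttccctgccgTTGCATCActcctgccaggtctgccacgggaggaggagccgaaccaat
Slc7a11 held 2 matches on opposite strands, 66 and 47 bases before its start, in a gene that rose by 3.70 ± 0.20. Tars held 1 match 15 bases before its start (0.76 ± 0.12), and Chac1 held 1 match 193 bases before its start in a gene that fell (-0.41 ± 0.12).

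Heat shock proteins, chaperones of the cytosol, were split: 14 of 29 rose and 5 fell. Hspa1a, the inducible Hsp70, measured 12.34 and 12.52 at day 1, against 9.91 and 9.77 at day 0, a difference of 2.59 ± 0.15, adjusted p = 1.37e-07. Its probes may also read the near-identical gene Hspa1b. The cochaperone Dnajb1 (2.44 ± 0.16), Hsp90aa1 (1.90 ± 0.11) and the small heat shock proteins Hspb8 (1.24 ± 0.07) and Hspb1 (1.17 ± 0.12) rose. Members of the same families moved otherwise: Hspa1l (-0.71 ± 0.16) and Dnajb5 (-0.74 ± 0.08) fell, and the muscle chaperones Cryab (0.18 ± 0.07) and Hspb6 (-0.12 ± 0.11) did not pass. The letters GAANNTTC, which hold a pair of heat shock factor units facing each other, were in 14 of 33 promoters of the list, or 42.4%, against 7.86% of all promoters. They are shown in the list's largest rise and in a small heat shock gene.
Hspa1a (chr17:34972213-34972300, minus strand): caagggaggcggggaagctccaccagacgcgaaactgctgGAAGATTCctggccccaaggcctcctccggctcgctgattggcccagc
Hspb1 (chr5:135887762-135887869, plus strand): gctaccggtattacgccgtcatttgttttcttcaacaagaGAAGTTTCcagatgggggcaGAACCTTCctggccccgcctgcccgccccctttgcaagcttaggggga
Hspa1a held 1 match 104 bases before its start and Hspb1 held 2 matches, 117 and 97 bases before its start.

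Of the metallothionein, heme, iron and antioxidant genes 17 of 34 rose and 8 fell. Hmox1, which degrades heme, had a level of 12.05 and 12.19 at day 1, against 8.58 and 8.35 at day 0, a difference of 3.65 ± 0.09, adjusted p = 5.24e-10. The metal-binding Mt1 measured 13.70 and 13.71 at day 1, against 10.59 and 10.50 at day 0 (3.16 ± 0.08) and Mt2 rose by 2.67 ± 0.09. Srxn1 (3.11 ± 0.07), which repairs peroxiredoxins, and the zinc and iron importer Slc39a14 (2.29 ± 0.12) rose, as did the iron-binding Lcn2 (2.11 ± 0.37). The iron exporter Slc40a1 (-0.71 ± 0.13), the mitochondrial superoxide dismutase Sod2 (-0.63 ± 0.08) and Gsta4 (-0.72 ± 0.15) fell. Transferrin, Trf, measured 13.45 and 11.68 at day 1, against 11.22 and 13.25 at day 0, the pattern of the hepatocyte genes, and did not pass. Fewer genes of the list fell when a left pool was left out, 5 for that of day 1 and 5 for that of day 0. In the polyamine pathway 6 of 10 rose and 1 fell. Odc1, the first enzyme of polyamine synthesis, measured 12.45 and 12.50 at day 1, against 10.91 and 10.88 at day 0 (1.58 ± 0.08), and Srm (1.62 ± 0.08), Sat1 (2.64 ± 0.10) and Azin1 (1.56 ± 0.08) rose. Arg1 measured 11.85 and 11.90 at day 1, against 7.37 and 9.16 at day 0 (3.60 ± 0.43), so the left pool of day 0, high in hepatocyte genes, stood above the right one, and Arg2, its relative in other cells, measured 9.49 and 10.49 at day 1, against 6.72 and 6.84 at day 0 (3.21 ± 0.25).

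Genes that answer low oxygen and supply glucose included large rises and large falls. Of 31 measured 17 rose and 7 fell. Slc2a1, the glucose transporter of most cells, had a level of 13.61 and 13.64 at day 1, against 10.63 and 10.63 at day 0, a difference of 2.99 ± 0.08, adjusted p = 5.32e-10. Slc2a4, the insulin-responsive transporter of muscle, fell to 10.70 and 10.68 at day 1, against 12.77 and 12.69 at day 0, a difference of -2.04 ± 0.18, adjusted p = 3.7e-06. Both changed by about as much in the right as in the left pools. The vasodilator peptide Adm (2.55 ± 0.07), the phosphofructokinase Pfkp (2.31 ± 0.14) and Plod2 (1.82 ± 0.11), which modifies collagen, rose. The lactate dehydrogenase subunit Ldhb (-1.92 ± 0.20) and the oxygen-regulated factor Epas1 (-1.13 ± 0.09) fell, while Ldha (-0.14 ± 0.07) and Pgk1 (-0.01 ± 0.07) did not pass.

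Of p53 targets, arrest genes and death genes 19 of 28 rose and 6 fell. Plk2 stood at 11.66 and 11.67 at day 1, against 8.34 and 8.40 at day 0 (3.29 ± 0.07) and Gadd45a, a growth arrest gene, at 11.51 and 11.45 at day 1, against 8.61 and 8.74 at day 0 (2.81 ± 0.08). Plk3 (2.21 ± 0.10), the caspases Casp4 (1.89 ± 0.09) and Casp8 (1.72 ± 0.09) and Mlkl (1.71 ± 0.08), which opens the membrane in necroptosis, rose. The cell cycle inhibitors Cdkn2c (-0.84 ± 0.13), Cdkn1c (-0.65 ± 0.10) and Cdkn2a (-0.50 ± 0.12) fell. In the fit without both hepatocyte-rich pools 3 of these genes fell rather than 6.

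**Figure D3:**
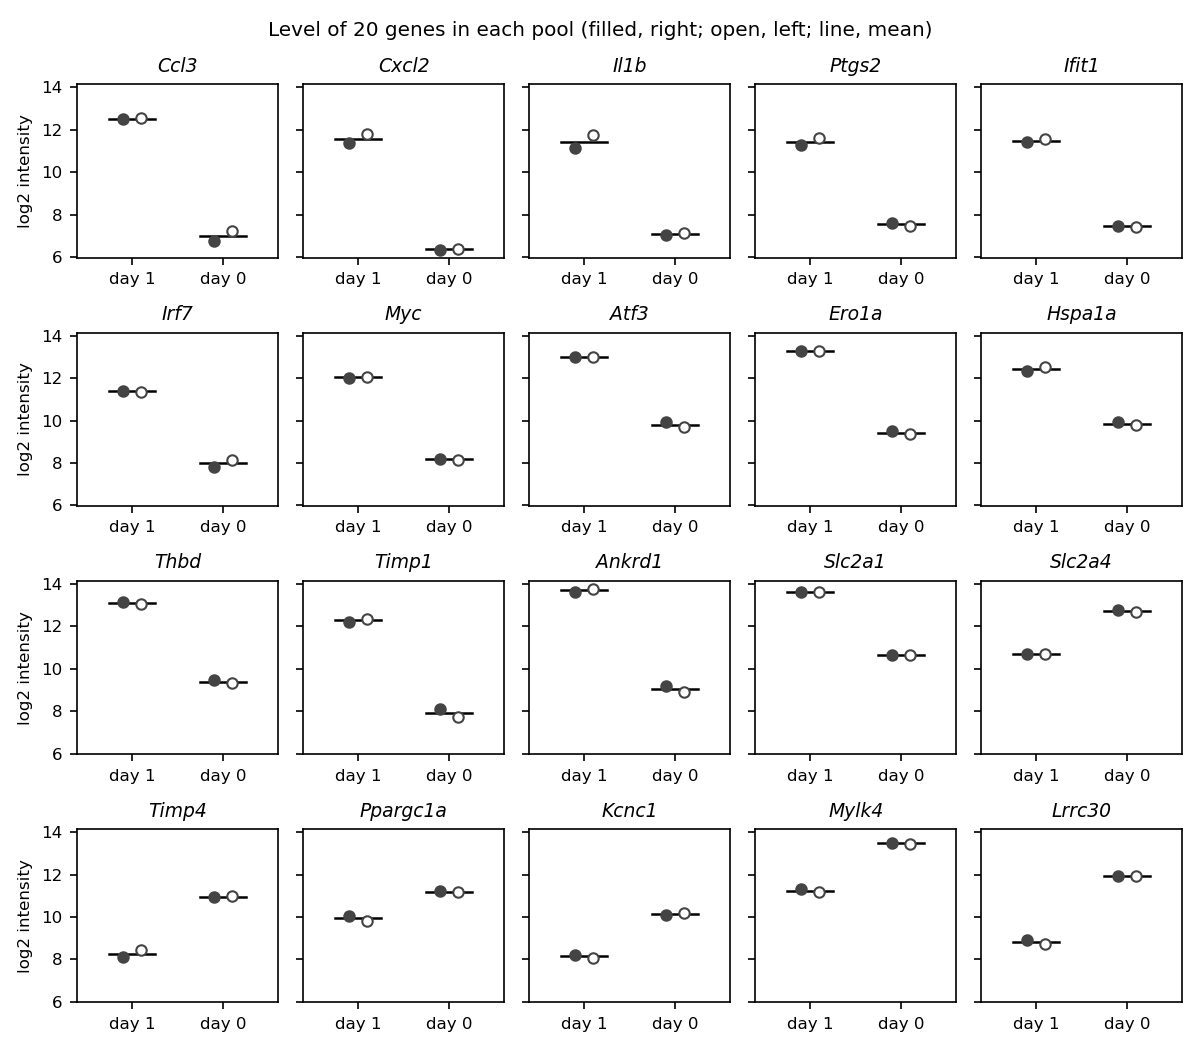
Log2 intensity (vertical axis) of 20 genes in the pools of day 1 and day 0 (horizontal axis). Filled points are right pools, open points left pools and lines the mean of the day. In each of the 20 genes the day 1 pools lie apart from the day 0 pools, above them in 14 and below them in 6.

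Of 23 genes of blood clotting and of the plasminogen system 13 rose and 3 fell. Thbd, which turns thrombin to an anticoagulant role, had a level of 13.14 and 13.06 at day 1, against 9.45 and 9.33 at day 0, a difference of 3.71 ± 0.10, adjusted p = 8.31e-10. Plaur, the receptor that gathers urokinase on cells, measured 10.30 and 10.58 at day 1, against 7.75 and 7.86 at day 0 (2.63 ± 0.10). The plasminogen activator inhibitor Serpinb2 (2.35 ± 0.23), the plasminogen receptor Anxa2 (2.24 ± 0.09) and F13a1 (2.02 ± 0.12), which cross-links fibrin, rose. F10, also a liver gene, measured 10.43 and 10.29 at day 1, against 7.90 and 9.02 at day 0 (1.90 ± 0.28), with its day 0 left pool the higher of that day, and Plg itself measured 11.37 and 9.14 at day 1, against 8.88 and 11.31 at day 0 and did not pass. The endothelial gene Vwf fell (-0.41 ± 0.08). Without the right pool of day 1, 5 of these genes fell instead of 3.

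Of the matrix proteases and their inhibitors 12 of 24 rose and 9 fell. Timp1, an inhibitor of metalloproteinases, had a level of 12.21 and 12.35 at day 1, against 8.12 and 7.72 at day 0, a difference of 4.35 ± 0.11, adjusted p = 5.74e-10. The other inhibitors of the family fell: Timp4, an inhibitor made in muscle, measured 8.10 and 8.44 at day 1, against 10.94 and 10.97 at day 0 (-2.69 ± 0.15, adjusted p = 8.21e-08), Timp3 changed by -0.77 ± 0.10 and Timp2 by -0.73 ± 0.06. Of the proteases, the neutrophil enzymes Mmp9 (2.83 ± 0.27) and Mmp8 (2.09 ± 0.34) rose with Mmp3 (2.33 ± 0.16) and Mmp19 (2.11 ± 0.12). Provisional matrix, which fills a wound before collagen is laid down, was higher, as 20 of 27 genes rose and 1 fell. Cd44, the receptor of hyaluronan, measured 10.93 and 11.20 at day 1, against 8.03 and 7.89 at day 0 (3.10 ± 0.10), and thrombospondin 1, Thbs1, measured 13.23 and 13.58 at day 1, against 10.74 and 10.38 at day 0 (2.85 ± 0.14). Fgl2 (2.94 ± 0.10), Tnc (2.28 ± 0.15), Emilin2 (2.23 ± 0.17) and versican, Vcan (2.22 ± 0.11), rose. Vtn, a plasma protein of the liver, measured 12.21 and 10.32 at day 1, against 11.04 and 12.48 at day 0 and did not pass.

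Of 18 collagens 5 rose and 7 fell, against 20.3% and 34.7% of all genes, with a median of -0.15. All 18 were lower at day 1 than at day 3, a call made for 21.5% of all genes. Col1a1 measured 10.62 and 10.84 at day 1, against 10.89 and 10.73 at day 0 and did not pass (-0.08 ± 0.09), and Col3a1 was up by 0.36 ± 0.08. At day 3 the means of these genes were 12.79 and 12.01, against 10.73 and 10.33 at day 1. Col8a1 (0.87 ± 0.09) and Col12a1 (0.41 ± 0.10) rose, and Col15a1 (-0.98 ± 0.09), Col22a1 (-0.61 ± 0.08), Col6a1 (-0.43 ± 0.08) and Col6a2 (-0.55 ± 0.07) fell. Only 3 rose when the left pool of day 1 was left out, and Col12a1 lost its call in the absence of the left pool of day 0 (0.27).

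Of 28 growth factors of vessels and their receptors 13 rose and 11 fell. Pgf, a relative of vascular endothelial growth factor, had a level of 11.29 and 11.36 at day 1, against 8.26 and 7.79 at day 0, a difference of 3.30 ± 0.14, adjusted p = 1.25e-08. Apln, a peptide of sprouting vessels, measured 11.57 and 11.67 at day 1, against 8.77 and 8.35 at day 0 (3.06 ± 0.12). Angpt2, which loosens vessel walls, rose (1.89 ± 0.09), while Angpt1, which steadies them, fell to 7.24 and 7.08 at day 1, against 8.39 and 8.16 at day 0 (-1.12 ± 0.12), as did their receptor Tek (-1.02 ± 0.08) and Vegfb (-0.97 ± 0.08). Angptl4 (1.86 ± 0.14), an inhibitor of lipoprotein lipase, and Pdgfa (1.09 ± 0.07) rose.

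Genes tied to load and to titin, the elastic protein of the sarcomere, were mostly lower, with a few large rises: 6 of 27 rose and 15 fell. Ankrd1, a titin-binding stress gene, had a level of 13.61 and 13.77 at day 1, against 9.21 and 8.89 at day 0, a difference of 4.64 ± 0.13, adjusted p = 7.51e-10. Xirp1, which gathers at sites of fibre damage, measured 13.61 and 13.63 at day 1, against 11.56 and 11.40 at day 0 (2.14 ± 0.14), and Csrp3 rose by 1.37 ± 0.11. The Z-disc genes Myoz2 (-1.37 ± 0.11), Tcap (-1.34 ± 0.15) and Fhl3 (-1.18 ± 0.09) fell, and Xirp2 (0.21 ± 0.11), Ankrd23 (-0.14 ± 0.08) and Fhl1 (-0.13 ± 0.08) did not pass. Of 22 membrane repair genes and annexins, which patch torn membranes in the presence of calcium, 15 rose and 4 fell. Anxa2 measured 12.16 and 12.31 at day 1, against 10.04 and 9.94 at day 0 (2.24 ± 0.09). Anxa4 (1.42 ± 0.09), Anxa1 (1.32 ± 0.10), the ferlin Myof (1.33 ± 0.09) and the annexin partners S100a10 (1.21 ± 0.07) and S100a11 (1.32 ± 0.09) rose, the acid sphingomyelinase Smpd1 fell (-1.08 ± 0.08), and Trim72 (-0.03 ± 0.10) did not pass. Fewer of them fell without both hepatocyte-rich pools, 1 against 4, and 2 fell without the right pool of day 0 or without the right pool of day 1.

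Of 27 cytoskeletal targets of serum response factor 15 rose and 9 fell. Ccn1, a matricellular gene, measured 12.26 and 12.51 at day 1, against 10.56 and 10.44 at day 0 (1.89 ± 0.10). Among the rises were the non-muscle myosin Myh9 (1.64 ± 0.09), Actn1 (1.596 ± 0.10), Tpm3 (1.43 ± 0.08) and Cfl1 (1.31 ± 0.07). Among the falls were genes of smooth muscle: Myl9 measured 9.21 and 9.37 at day 1, against 10.83 and 11.07 at day 0 (-1.66 ± 0.17), Acta2 changed by -0.97 ± 0.09 and Cnn1 by -0.91 ± 0.12. The skeletal actin Acta1 (-0.08 ± 0.07), Tpm1 (-0.17 ± 0.09) and Cfl2 (-0.18 ± 0.08) did not pass. Of 14 genes of pericytes and smooth muscle 12 fell and 1 rose: Myh11, the smooth muscle myosin, fell to 8.61 and 8.68 at day 1, against 9.90 and 10.14 at day 0 (-1.38 ± 0.09), with Rgs5 (-1.29 ± 0.10) and Kcnj8 (-1.23 ± 0.11) of pericytes, and Mustn1, which is also made by muscle fibres, rose (1.11 ± 0.08).

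In the axis of activin, myostatin and TGF-beta 14 of 38 rose and 12 fell, against 20.3% and 34.7% of all genes. Myostatin, Mstn, which limits muscle size, fell to 10.19 and 10.17 at day 1, against 11.39 and 11.25 at day 0 (-1.15 ± 0.19, adjusted p = 0.000421). Tgfb1 (1.11 ± 0.09) and Bmp2 (1.16 ± 0.15) rose, Tgfb3 (-1.22 ± 0.08) fell, and Tgif1, a repressor of TGF-beta targets, stood at 11.91 and 11.91 at day 1, against 9.47 and 9.52 at day 0 (2.41 ± 0.09). Id2 measured 11.64 and 11.33 at day 1, against 9.36 and 10.66 at day 0 (1.47 ± 0.30), its left pool of day 0 being the higher of that day. In the insulin-like growth factor axis 4 of 19 rose and 6 fell, which is near those shares of all genes. Igf1r, the receptor, had a level of 11.01 and 11.21 at day 1, against 9.55 and 9.43 at day 0 (1.61 ± 0.09, adjusted p = 7.86e-08). Igf1, also a liver gene, measured 10.71 and 9.93 at day 1, against 9.80 and 10.39 at day 0 and did not pass (0.23 ± 0.22). Igfbp3 rose (1.70 ± 0.12), and Igfbp5 (-1.41 ± 0.07), Igfbp6 (-1.003 ± 0.07), Igf2 (-0.91 ± 0.09) and the adaptor Irs1 (-1.02 ± 0.07) fell.

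In a list of 26 genes, which holds atrophy ubiquitin ligases, adaptors of the Asb family and FoxO genes, 8 rose and 14 fell. Trim63, the ligase MuRF1, measured 13.03 and 12.95 at day 1, against 11.31 and 11.13 at day 0, a difference of 1.77 ± 0.09, adjusted p = 6.76e-08. Adaptors of the Asb family were among the falls: Asb15 measured 9.18 and 9.09 at day 1, against 11.82 and 11.80 at day 0 (-2.67 ± 0.17, adjusted p = 2.94e-07), Asb18 changed by -1.97 ± 0.13, Asb2 by -1.88 ± 0.09, Asb10 by -1.76 ± 0.12 and Asb14 by -1.66 ± 0.15. Asb5 of the same family rose (1.07 ± 0.09), and so did Cblb (0.74 ± 0.07). Asb11 (-0.30 ± 0.15) and Fbxo40 (-0.34 ± 0.15) did not pass.

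Regulators of muscle identity and of satellite cells, the stem cells of muscle, fell in 17 of 27 cases and rose in 5. Six4, a homeobox factor of muscle genes, fell to 8.46 and 8.24 at day 1, against 10.35 and 10.14 at day 0, a difference of -1.90 ± 0.12, adjusted p = 1.85e-07. Mef2c measured 11.77 and 11.80 at day 1, against 12.88 and 12.83 at day 0 (-1.07 ± 0.10), and Heyl (-0.98 ± 0.12) and Bhlhe41 (-1.15 ± 0.09) were lower. Notch2 (1.55 ± 0.09), Bhlhe40 (1.13 ± 0.10) and Myf6 (0.88 ± 0.10), a myogenic factor of mature fibres, rose. Mef2a (-0.15 ± 0.07) and Mef2d (-0.12 ± 0.07) did not pass.

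Of the genes of the contractile apparatus 14 of 30 fell and 1 rose. Genes of abundant sarcomere proteins were among the others: skeletal actin, Acta1 (-0.08 ± 0.07), nebulin, Neb (-0.14 ± 0.09), and fast troponin, Tnnt3 (-0.09 ± 0.09), did not pass. Mylk4, a kinase related to those of myosin light chain, fell to 11.33 and 11.16 at day 1, against 13.51 and 13.43 at day 0, a difference of -2.23 ± 0.18, adjusted p = 1.75e-06. Lmod3, which builds thin filaments, fell by 1.25 ± 0.08 and Myh2, the myosin of oxidative fast fibres, by 0.91 ± 0.15. The slow genes Myl2 (-1.69 ± 0.35) and Myl3 (-1.52 ± 0.33) were called, with the larger fall in the left pool of day 1: Myl2 measured 9.77 and 8.80 at day 1, against 10.98 and 10.96 at day 0 and Myl3 measured 10.36 and 9.15 at day 1, against 11.29 and 11.26 at day 0. Slow myosin, Myh7, measured 9.88 and 8.11 at day 1, against 9.89 and 9.78 at day 0 and did not pass, and without the right pool of day 1 it was called (-1.73).

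Of 29 genes of excitation and calcium release 24 fell and 1 rose, with a median of -0.83. Kcnc1, a potassium channel, had a level of 8.22 and 8.08 at day 1, against 10.11 and 10.17 at day 0, a difference of -1.99 ± 0.16, adjusted p = 1.34e-06. The inward rectifier Kcnj2 measured 8.92 and 8.99 at day 1, against 10.85 and 10.89 at day 0 (-1.91 ± 0.10), and the sodium channel subunit Scn4b measured 9.85 and 9.87 at day 1, against 11.62 and 11.66 at day 0 (-1.78 ± 0.19). In these the day 1 pools lay within 0.2 of each other and more than 1.5 below day 0. Stac3 (-1.57 ± 0.10), which couples the voltage sensor to calcium release, the calcium-binding Casq2 (-1.73 ± 0.11) and Kcna7 (-1.46 ± 0.16) fell as well. The slow-fibre calcium pump Atp2a2 rose (0.33 ± 0.09), a call lost without the left pool of day 0 (0.29) or the right pool of day 1 (0.19), and with the arrays of days 1 and 0 alone (adjusted p = 0.0812). The fast pump Atp2a1 (-0.08 ± 0.08), parvalbumin, Pvalb (-0.16 ± 0.13), and triadin, Trdn (-0.22 ± 0.12), did not pass. Of the genes of the acetylcholine receptor and of denervation 6 of 19 rose and 9 fell. The rises include Runx1 and Gadd45a, which are also counted in the immediate early and p53 lists. The adult receptor subunit Chrne fell to 8.83 and 8.90 at day 1, against 10.39 and 10.33 at day 0 (-1.50 ± 0.11), and Chrnd rose to 9.39 and 9.17 at day 1, against 7.99 and 8.32 at day 0 (1.13 ± 0.14). The esterase Ache (-1.45 ± 0.11) and Ufsp1 (-1.43 ± 0.10), its neighbour in the genome, fell, and the embryonic subunit Chrng did not pass (-0.17 ± 0.20).

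Of 29 regulators of mitochondrial and fibre type genes 19 fell and 7 rose. Esrrg, a nuclear receptor that drives oxidative genes, fell to 8.45 and 8.25 at day 1, against 10.11 and 10.05 at day 0, a difference of -1.73 ± 0.11, adjusted p = 1.82e-07. Ppara (-1.55 ± 0.20), Thrb (-1.38 ± 0.14), a thyroid hormone receptor, and Prkag3 (-1.49 ± 0.08), the fast-muscle subunit of AMP kinase, fell. Ppard (1.28 ± 0.07), the calcineurin regulator Rcan1 (1.29 ± 0.10) and Pprc1 (1.25 ± 0.13) rose. Genes of the respiratory chain and of fuel oxidation fell nearly as a whole. Of the complex I subunits 35 of 35 fell, with a median of -0.82 and a largest fall of -1.15 ± 0.13 for Ndufb8. Of the subunits of complexes II to V 33 of 38 fell and 0 rose, with a median of -0.65: Uqcrfs1 measured 9.87 and 9.92 at day 1, against 10.98 and 10.97 at day 0 (-1.08 ± 0.07) and Sdhb measured 11.47 and 11.47 at day 1, against 12.55 and 12.53 at day 0 (-1.07 ± 0.10), while cytochrome c, Cycs (-0.16 ± 0.11), did not pass. Of the genes of fatty acid and branched amino acid oxidation 31 of 31 fell, with a median of -1.04. Lpl, which frees fatty acids from blood lipids, measured 11.01 and 10.80 at day 1, against 12.44 and 12.47 at day 0 (-1.55 ± 0.09), the uncoupling protein Ucp3 changed by -1.47 ± 0.12, Mccc2 by -1.41 ± 0.09 and the fatty acid carrier Fabp3 by -1.29 ± 0.15. In all genes the share that fell was 34.7%. The letters CAAGGTCA, read by receptors of the Esrrg family, were in 1 of 34 promoters of complex I, 2 of 32 promoters of complexes II to V and 0 of 31 promoters of the oxidation genes, against 1.56% of all promoters.

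Of the factors of ribosome assembly and RNA polymerase I 32 of 39 rose and 0 fell, with a median of 0.58, and at least 25 rose in each fit that left out pools. Nop58, of the enzyme that methylates ribosomal RNA, measured 10.08 and 10.08 at day 1, against 8.48 and 8.12 at day 0 (1.78 ± 0.12, adjusted p = 3.7e-07). Gnl3 (1.61 ± 0.11), Ddx21 (1.44 ± 0.09) and Npm1 (1.35 ± 0.10) rose, and the polymerase I factors Rrn3 (-0.06 ± 0.07) and Polr1a (-0.06 ± 0.08) did not pass. Of 34 cytosolic ribosomal proteins 13 rose and 2 fell, most by little. Rpl12 rose (1.496 ± 0.11) and Rpl3l, the muscle form of Rpl3, fell to 11.06 and 11.14 at day 1, against 12.13 and 12.22 at day 0 (-1.07 ± 0.21). Fewer ribosomal proteins rose in each fit that left pools out. The median of the list was 0.15 to 0.18 in those fits, against 0.15 with all pools. Of 27 mitosis genes 4 rose and 0 fell. All 27 were lower at day 1 than at day 3, a call made for 21.5% of all genes. Kif23 measured 8.16 and 7.75 at day 1, against 7.48 and 7.06 at day 0 (0.68 ± 0.18) and Ccnb2 measured 9.62 and 8.92 at day 1, against 9.58 and 8.56 at day 0 and did not pass, the right pool being higher at both days. The call of Kif23 was lost without the left pool of day 0 (0.47) or the right pool of day 1 (0.47), and with the arrays of days 1 and 0 alone (adjusted p = 0.0512). In the fit without the right pool of day 1 and in that without the left pool of day 0, 0 mitosis genes rose, whereas 9 rose in the fit without the left pool of day 1 and 7 in that without the right pool of day 0. Without both hepatocyte-rich pools 0 rose and 7 fell, and the median of the list was -0.33, against 0.20 with all pools. Ccnb2 was called as a fall there (-0.66, adjusted p = 0.0252), and as a rise without the right pool of day 0 (0.72, adjusted p = 0.0437).

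Of 28 genes of inflammatory monocytes and macrophages 26 rose and 1 fell, with a median of 2.98. The membrane genes Ms4a6d and Ms4a4c measured 11.99 and 12.03 at day 1, against 7.04 and 7.17 at day 0 (4.90 ± 0.09, adjusted p = 1.22e-10) and 11.31 and 11.39 at day 1, against 6.68 and 6.24 at day 0 (4.90 ± 0.15, adjusted p = 1.62e-09), and their relative Ms4a4a was up by 4.49 ± 0.10. The inhibitory receptor Lilrb4a rose by 4.22 ± 0.15 and its near copy Lilr4b by 4.72 ± 0.15, the antibody receptor Fcgr4 by 4.18 ± 0.15 and the integrin Itgam, a defining marker of myeloid cells, by 3.86 ± 0.19. Marco fell (-0.59 ± 0.11) and the lysozyme gene Lyz1 did not pass (-0.29 ± 0.14). Resident macrophage genes had no common direction, with 6 of 21 up and 7 down, against 20.3% and 34.7% of all genes. Mrc1 measured 10.73 and 10.56 at day 1, against 8.86 and 8.76 at day 0 (1.84 ± 0.09) and Siglec1 (1.98 ± 0.13), Stab1 (1.39 ± 0.07) and Mertk (1.16 ± 0.09) rose, Gas6 fell (-0.99 ± 0.08), and Lyve1 (-0.13 ± 0.12) did not pass.

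Genes of mature neutrophils rose in 16 of 17 cases and fell in 0, with a median of 2.55, and the summed intensity of the list was 33207 and 52330 at day 1, against 7555 and 5233 at day 0. The left pool of day 1 was the higher of its day: Cxcr2 measured 11.50 and 12.66 at day 1, against 7.22 and 6.66 at day 0 and Trem1 measured 9.73 and 10.58 at day 1, against 6.64 and 6.33 at day 0. Il1f9, which encodes interleukin 36 gamma, stood at 10.90 and 11.35 at day 1, against 7.04 and 6.94 at day 0, a difference of 4.14 ± 0.26, adjusted p = 2.1e-07. Ceacam10 did not pass (0.44 ± 0.20), but was called without the right pool of day 1 (0.83). Of the 11 granule genes of neutrophil precursors 1 rose and 0 fell. Neutrophil elastase, Elane, measured 9.76 and 8.29 at day 1, against 9.61 and 8.55 at day 0 (-0.05 ± 0.45), Ngp measured 12.18 and 10.15 at day 1, against 11.71 and 10.48 at day 0 (0.07 ± 0.91), and neither passed. Without the left pool of day 1, 4 of them rose and 0 fell, without the right pool of day 1, 1 rose and 2 fell, and without both hepatocyte-rich pools 1 rose and 7 fell. The median of the list was 0.69, -0.60 and -1.11 in these fits, and Elane was called as a fall in the last (-1.32, adjusted p = 0.00833).

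Of 21 genes of T, B and NK lymphocytes 2 rose and 3 fell, 10 had levels under the olfactory 95th percentile in all 4 pools, and the T cell chain Cd3e measured 7.93 and 7.94 at day 1, against 8.02 and 7.99 at day 0 and did not pass. Of 15 mast cell genes 2 rose and 4 fell, with Cpa3, a mast cell protease, at -0.33 ± 0.12. Levels of 9 of the 15 lay under the olfactory 95th percentile in all 4 pools. The call of Cpa3 was lost without any 1 of the 4 pools (-0.36 to -0.30), after quantile normalization (-0.21) and with equal array medians (-0.31). The rises were of Kit (1.42 ± 0.13) and of Hdc (2.32 ± 0.18), the histamine-forming enzyme, which the neutrophil list holds too. Fewer mast cell genes fell in each fit that left out 1 pool or both hepatocyte-rich pools. Of 9 genes of platelets and red cells 2 rose, the chemokines Pf4 at 11.77 and 11.82 at day 1, against 9.46 and 9.13 at day 0 (2.50 ± 0.11) and Ppbp at 13.54 and 13.61 at day 1, against 11.72 and 11.38 at day 0 (2.02 ± 0.24), while the platelet glycoprotein Gp9 measured 8.86 and 8.81 at day 1, against 9.01 and 8.87 at day 0 (-0.10 ± 0.14) and did not pass.

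Among all genes 34.7% fell and 20.3% rose. Of 18 genes of fibro-adipogenic progenitors and fibroblasts 14 fell and 1 rose: Dpt measured 10.20 and 10.22 at day 1, against 11.24 and 11.15 at day 0 (-0.99 ± 0.08), Gsn changed by -1.04 ± 0.09 and Smoc2 by -0.91 ± 0.09, and the receptor Pdgfra, which defines these cells, rose to 10.82 and 10.60 at day 1, against 10.21 and 10.09 at day 0 (0.56 ± 0.09). Of 20 endothelial genes 9 fell and 3 rose: the receptors Tek (-1.02 ± 0.08) and Kdr (-0.94 ± 0.09) and the phosphatase Ptprb (-0.92 ± 0.07) fell, the junction gene Cldn5 rose to 10.56 and 10.56 at day 1, against 9.81 and 9.73 at day 0 (0.79 ± 0.09), and Pecam1 (0.18 ± 0.07) did not pass. Of 11 tendon genes 8 fell and 1 rose, with Chad at 9.43 and 8.93 at day 1, against 11.01 and 10.61 at day 0 (-1.63 ± 0.25) and the rise in Thbs4 (1.11 ± 0.08). Of 13 Schwann cell genes 10 fell and 1 rose, the rise being in Egr2 (1.25 ± 0.09), also an immediate early gene, and the falls being small, -0.69 ± 0.19 for Cdh19 and -0.48 ± 0.08 for Pmp22. Cdh19 averaged 5.92 at day 1 and 6.62 at day 0, low at both days. Of 14 adipocyte genes 8 fell and 1 rose, with leptin, Lep, at -0.73 ± 0.16 and Plin1 at -0.68 ± 0.19. The call of Plin1 was lost in the absence of the left pool of day 1 (-0.48) and in that of the right pool of day 0 (-0.52), and that of Cdh19 without the right pool of day 1 (-0.60). These falls were fewer in many fits that left pools out, but as many or more in others. Without the right pool of day 0 there were 9 in fibro-adipogenic progenitors, 5 in tendon and 5 in adipocyte genes, without the left pool of day 1 there were 4 in adipocyte genes, and without both hepatocyte-rich pools there were 5 in Schwann cell genes.

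**Figure D4:**
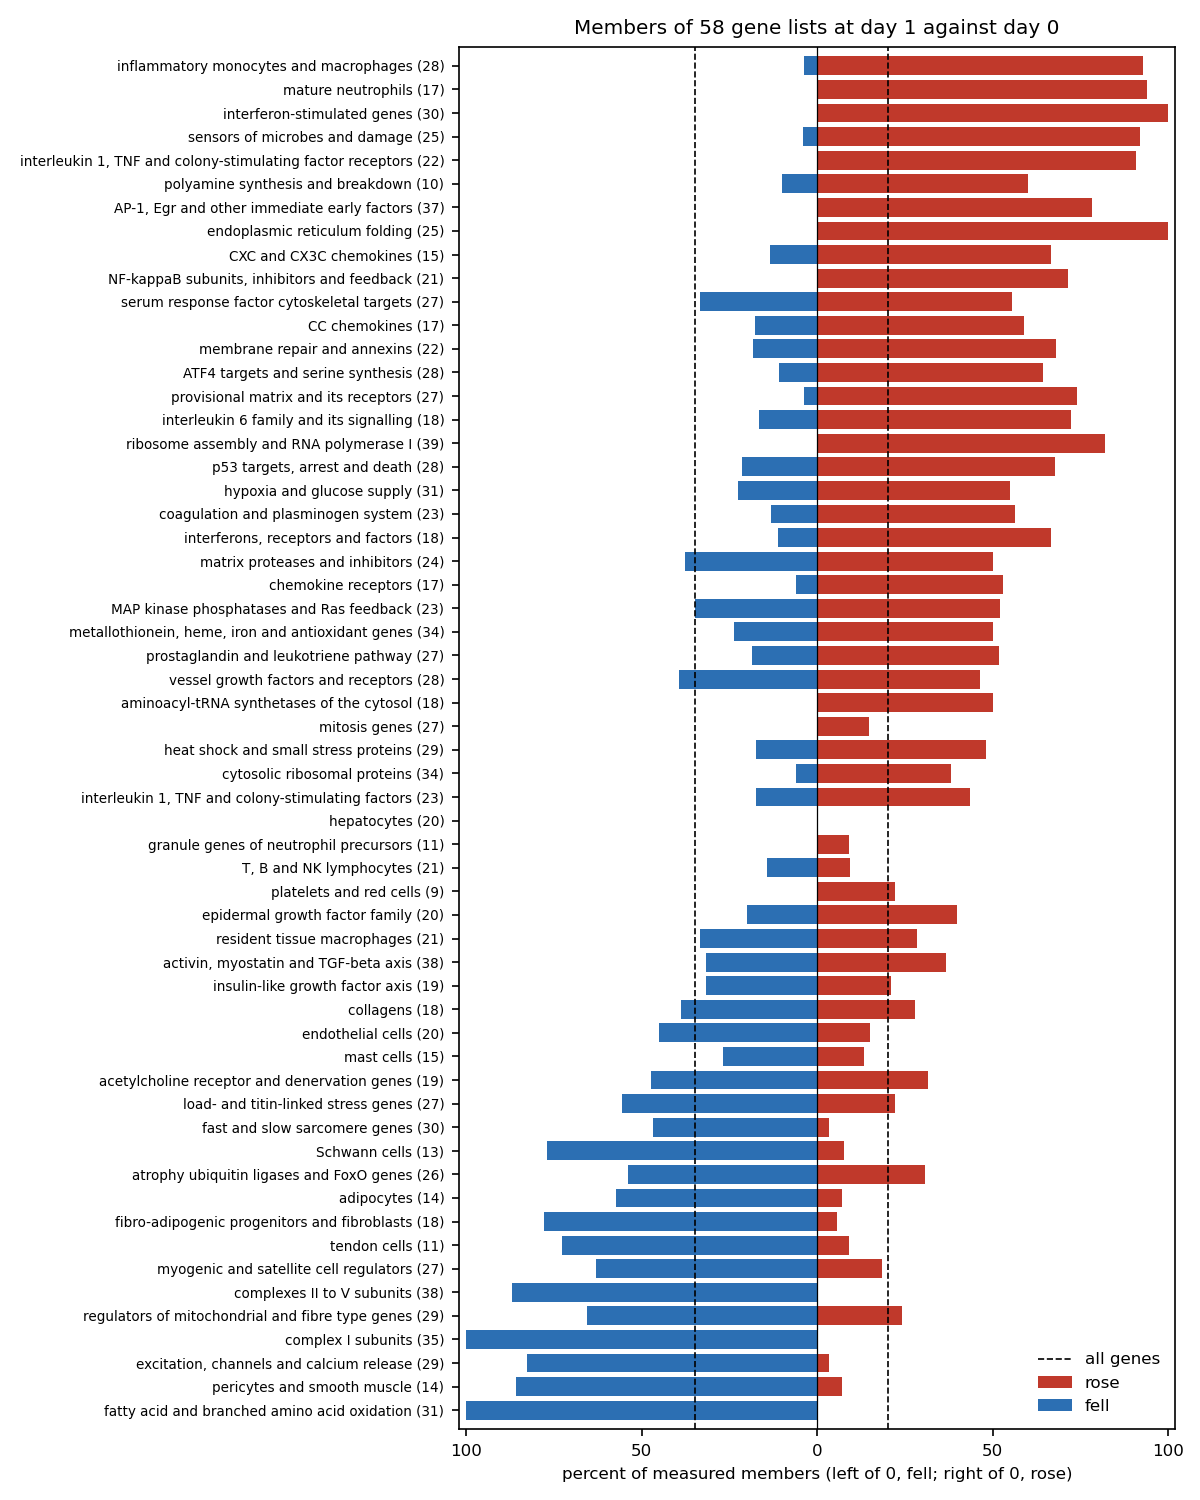
Share of the measured members of 58 gene lists that rose (red, right of 0) or fell (blue, left of 0) at day 1 against day 0, in percent (horizontal axis), with the number measured in parentheses and the lists ordered by their median difference. Dashed lines mark the shares of all genes, 20.3% and 34.7%. All measured members rose in the interferon-stimulated and endoplasmic reticulum folding lists, and all fell in the complex I and the oxidation lists.

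The largest falls over all genes included genes of muscle fibres. Lrrc30, of unknown role, fell to 8.94 and 8.72 at day 1, against 11.93 and 11.92 at day 0, a difference of -3.10 ± 0.15, adjusted p = 3.42e-08. Ky, a protease-like gene needed for healthy muscle, measured 7.94 and 7.91 at day 1, against 11.02 and 10.88 at day 0 (-3.02 ± 0.14, adjusted p = 2.25e-08). Ddit4l, an inhibitor of mTORC1, measured 9.70 and 9.74 at day 1, against 12.76 and 12.71 at day 0 (-3.02 ± 0.11, adjusted p = 3.69e-09). In each of them the pools of a day lay within 0.25 of each other. Klhl33 (-2.62 ± 0.14), the secreted Lgi1 (-2.60 ± 0.14), the membrane gene Smco1 (-2.59 ± 0.17), the semaphorin Sema6c (-2.48 ± 0.09), the phospholipase Plcd4 (-2.41 ± 0.17), Plpp7 of the nuclear envelope (-2.33 ± 0.08), the glucose transporter Slc2a12 (-2.26 ± 0.16) the melanocortin receptor Mc5r (-2.34 ± 0.10), Odf3l2 (-2.46 ± 0.12), Mettl11b (-2.32 ± 0.17) and Mrgprh (-2.15 ± 0.14) followed. Lrrc52 (-2.46 ± 0.24) and Lrrc38 (-2.41 ± 0.12) encode subunits that tune potassium channels. Retnla, a gene of fat and of alternatively activated macrophages, fell as well (-2.46 ± 0.25).

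How far day 1 stood alone was read from the later days. At day 1 the level was above that of each other day, with all 6 contrasts called, in 5.56% of genes, 1108, and below it in 5.83%, 1162. Against day 3 alone 13.2% of genes were higher at day 1 and 21.5% lower. All these contrasts share the day 1 arrays. Of the interferon-stimulated genes 29 of 30 were above every other day. Ifit1 averaged 7.45, 11.49, 9.38, 8.98, 9.16, 8.77 and 8.36 at days 0, 1, 3, 5, 7, 10 and 14. Of the mature neutrophil genes 15 of 17 were above every other day, and Cxcr2 averaged 6.94, 12.08, 10.41, 8.67, 7.45, 6.45 and 6.70 at the same days. Of the AP-1 and immediate early genes 24 of 37 and of the endoplasmic reticulum folding genes 16 of 25 were too. Atf3 averaged 9.80, 13.01, 11.57, 10.76, 10.33, 10.64 and 10.65. Of the hypoxia and glucose genes 15 of 31 were, with Slc2a1 at 10.63, 13.62, 12.79, 11.95, 11.23, 10.54 and 10.44.

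Of the inflammatory monocyte and macrophage genes 10 of 28 were above every other day, and the median of the list over day 0 was 2.98 at day 1, 3.24 at day 3 and 1.32 at day 14. Ccl2 averaged 7.67, 12.50, 12.32, 11.55, 10.71, 9.10 and 8.56, and Timp1 averaged 7.92, 12.28, 12.98, 12.80, 12.36, 11.68 and 11.18. Of the complex I subunits 0 of 35 were below every other day, and 19 of 35 were higher at day 1 than at day 3. Their median was -0.82 at day 1, -1.16 at day 3 and -0.51 at day 14. Among the fibro-adipogenic genes 11 of 18 were lower at day 1 than at any other day, and among the collagens 6 of 18 were. Over all genes the named lows at day 1 were Mc5r (-2.34 ± 0.10), Plpp7, the glucose transport regulator Tbc1d4 (-1.97 ± 0.08), Six4, Ecm2 (-1.89 ± 0.09), the chloride channel family gene Best3 (-1.89 ± 0.12), Trim7 (-1.88 ± 0.11), the phosphodiesterase Pde4a (-1.79 ± 0.07), Islr (-1.76 ± 0.08) and Tmc7 (-1.74 ± 0.12). Tbc1d4 averaged 9.94, 7.97, 8.69, 9.02, 9.01, 8.71 and 8.94 over the 7 days, lowest at day 1.

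**Figure D5:**
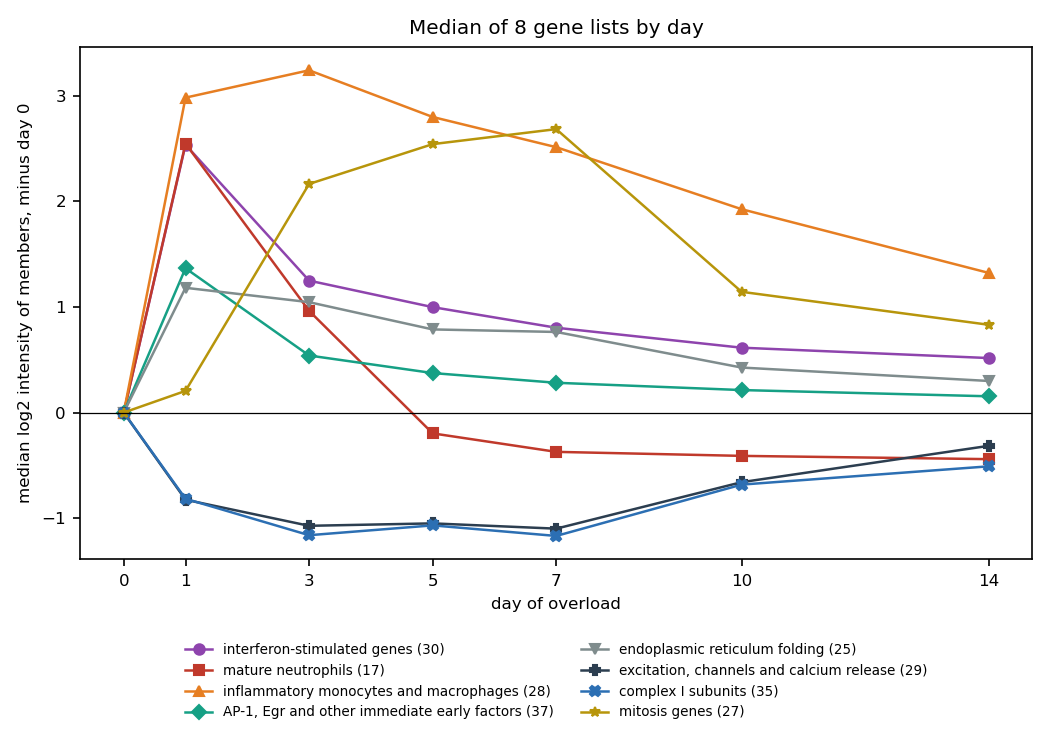
Median over the members of 8 gene lists of the log2 intensity of each day minus day 0 (vertical axis) at days 0 to 14 of overload (horizontal axis). The interferon-stimulated list stood at 2.53 at day 1 and 1.25 at day 3, mature neutrophil genes at 2.55 and 0.96, and mitosis genes at 0.20 and 2.16.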

How the data were processed

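Total RNA of pooled plantaris muscles was measured on 14 arrays, 2 at each of 7 days. The intensity values used are those the authors deposited on a linear scale, made with Partek per the submitters' processing notes. The version, the background correction and the normalization are not given in the sources used here, and array medians were 242.8 to 254.9. The labels' protocols name 100 ng of RNA in the design and 250 ng in labelling.

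Log2 values were fitted with limma 3.58.1 in R 4.3.3 with 1 mean per day, default empirical Bayes and Benjamini-Hochberg adjustment, two-sided. Of 35556 probe sets 21789 had 1 gene symbol in the platform annotation, 1621 had several and 12146 had none. Each of the 19938 genes was read from its brightest probe set. The fit was also run on simulated data, with independent noise in each array and known changes put into day 1. The simulated pools held no signals such as those of the hepatocyte genes, so that run cannot show the error rate here. Groups and sides came from the labels, and no arrays held identical values.

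The 58 gene lists and the genes in them were chosen with earlier results of these data known, so list counts are descriptions. Lists share members, so a gene can be counted in several of them. Cxcr2, Csf3r, Il1r2, Trem1 and Clec4d, for example, are in the mature neutrophil list and in a list of receptors or sensors. Genes were named from among those of a rule: the 20 largest called rises and falls whose pools did not overlap, the 10 largest rises and falls that stood apart from every other day, and in each list up to 6 of the largest called changes, up to 3 called against the majority and up to 3 of the brightest that did not pass. Gene models, receptor segments, small RNAs and Y-linked genes were counted and not named. The text names 379 of the 551 genes this gives, chosen with their values known. Cxcl1, Rsad2, Oas3, Ifnb1, Igf1 and Myh7 were added after their values were seen. Probes of near-identical copies (the Slfn, Ms4a and Lilrb4a groups among them) may read each other's RNA. Alternatives covered normalization, dim genes, probe sets, the variance prior, the arrays fitted, a side block, pools left out and a test against a 1.5-fold change.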

Additional observations from a re-analysis of the deposited data

How the results depend on the processing

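The side of the muscle, as a replicate block, gave 10760 called genes, against 10970, with 1852 past 2-fold, 6696 called between day 1 and day 3 and 2187 standing apart. Side itself was called in 0 genes, and the right minus left differences of days 1 and 0 correlated at -0.58, within -0.58 to 0.44 over the 21 pairs of days, so pairing was not established. A block with the sides of day 0 exchanged, chosen after seeing the data, gave 10718, 1852, 6644 and 2155. Leaving out 1 pool of day 1 or day 0 gave 9339 to 9548 called genes, 1842 to 2045 past 2-fold, 5485 to 6999 between day 1 and day 3 and 1661 to 2168 standing apart. A test against a 1.5-fold change called 2327, 680 between day 1 and day 3, and 200 standing apart, and a fit to the arrays of the compared days alone left 1423 standing apart. Of the 385 genes the text names, 48 lost their call in the test against a 1.5-fold change. Mstn, Id2, Myf6, Myl3, Myh2 and Rpl3l were among them. Of called genes 36.9% rose, and 60.2% did in the test against a 1.5-fold change. The other alternatives kept these counts within 1.5 times of the main ones. Some named genes that had not passed were called in another setting. After quantile normalization these were Ceacam10 (0.62), Cryab (0.24), Csf3 (0.32), Il11 (0.33), Nod1 (-0.20) and Xirp2 (0.24). With the arrays of the compared days alone they were Asb11 (-0.30) and Fbxo40 (-0.34), and with the mean of a gene's probe sets Cycs (-0.20) and Mef2d (-0.23). A trended variance prior called Cfl2, Cryab, Ldha, Mef2a and Pecam1. Of 385 genes the text names, those that turned direction had not passed in the main comparison. They were, as log2 differences, after quantile normalization Cd3e 0.0095, Cth -0.0676, Ifng 0.0333, Irf3 -0.0541, Ltf -0.0320, Pgk1 0.0593 and Traf2 -0.0344; with equal array medians Pgk1 0.0090; and without the right pool of day 1 and the left pool of day 0 together Ccnb2 -0.66, Cth -0.82, Ltf -1.81, Lyz1 0.0295, Ngp -1.55, Nr4a1 -0.0568 and Traf2 -0.0164. Over the fits without 1 pool the ranges were Alb -0.15 to 0.91, Ccl19 -0.14 to 0.0401, Ccnb2 -0.31 to 0.72, Chrng -0.36 to 0.0122, Col1a1 -0.19 to 0.0266, Cth -1.55 to 1.55, Egfr -0.0714 to 0.69, Elane -0.79 to 0.69, Hpgd -0.84 to 0.42, Igf1 -0.16 to 0.62, Il11 -0.0024 to 0.34, Irf3 -0.0141 to 0.0732, Klf4 -0.11 to 0.0356, Ltf -1.07 to 1.09, Lyve1 -0.29 to 0.0369, Myh7 -1.73 to 0.0389, Ngp -0.94 to 1.09, Pgk1 -0.0258 to 0.0024, Plg -1.06 to 1.38, Rrn3 -0.12 to 0.0042, Trf -0.69 to 1.35, Trim72 -0.10 to 0.0319 and Vtn -1.44 to 0.44. The cause was not tested.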
